A study of Mus musculus with 24 samples.

Results

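Gluconeogenesis, the synthesis of new glucose from lactate, glycerol and amino acids, was followed through 8 genes in mouse livers and liver tumors that carried or lacked the transcription factor CHOP. The genes are Pck1, G6pc, Fbp1, Pcx, Slc37a4, Tat, Got1 and Ppargc1a. They were taken by name from the gene symbols of the array annotation, and each has 1 probe. These are 8 of the 25697 probes on the array and 8 of the 8969 genes that were detected well enough to be tested.

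The liver is the main site of gluconeogenesis, and the pathway keeps blood glucose up between meals. It runs mostly on the reversible enzymes of glycolysis and gets around the irreversible glycolytic steps with enzymes of its own, which Pck1, G6pc, Fbp1 and Pcx encode. Glucagon, through cAMP, and glucocorticoids raise transcription of several of them, and insulin lowers it. Loss of gluconeogenic enzymes is well known from hepatocellular tumors.

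The mice were 9-month-old C57BL/6J males, either wild-type or Chop-/-, the latter with a constitutive deletion of most of the CHOP coding sequence in every cell. At day 15 each had received a single intraperitoneal dose of 25 mg/kg diethylnitrosamine (DEN), a liver carcinogen, or PBS. The PBS groups were whole livers of 3 wild-type and 3 Chop-/- mice, and the DEN groups were whole livers of 6 wild-type and 7 Chop-/- mice. The DEN-treated livers held both nodules and uninvolved tissue. The remaining samples were large tumors of mice given DEN, 3 wild-type and 2 Chop-/-. The labels do not tie a tumor to a mouse that also gave whole liver. Whether the mice had been fasted and at what hour they were killed is not given in the sources used here. RNA of each sample was read on 1 array of an Illumina BeadChip, which reports for each probe a light intensity averaged over many beads. All levels below are log2 values of that intensity after background correction and normalization, so that a difference of 1 is a doubling. A constant of 16 had been added before the log, which makes differences between dim probes look smaller than they were. Arrays are named by their set (A, B or C, each of 8 arrays) and their number within the study, as in A_04. The names of the sets do not say what they stand for.

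Between 8953 and 11248 probes were detected per array. Ddit3, the gene of CHOP itself, was detected on all 12 wild-type arrays and on none of the 12 from Chop-/- mice. Its level was 6.41 to 6.50 in PBS-treated and 6.09 to 6.90 in DEN-treated wild-type livers, 8.37 to 8.90 in wild-type tumors, and 4.32 to 4.80 over all Chop-/- samples, so no library went against its genotype label. A list of 8 measured hepatocyte markers, Alb among them, gave a summed signal of 143703 to 165959 in livers and of 148696 to 160030 in tumors, and none of the 8 went undetected in any group. All arrays were given 1 distribution of values, which limits how far sums of bright probes can shift. Against PBS-treated livers 3 of the 8 were higher and 1 lower in wild-type tumors (adjusted p under 0.05 from limma). That is 50% of the list, where 19.3% of all genes differed. None of the 8 differed in Chop-/- tumors, where 43.5% of all genes did. The Chop-/- tumors were unlike each other. The tumor C_24 had a summed signal of 3319 for the 3 neutrophil and monocyte markers against 260 in the tumor B_16, and of 34243 for the 3 erythroid markers against 17150. The levels of the 8 genes are therefore given for each of these tumors alone. In tissue samples such as these, fewer hepatocytes and less RNA of a gene per hepatocyte cannot be told apart.

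**Figure D1:**
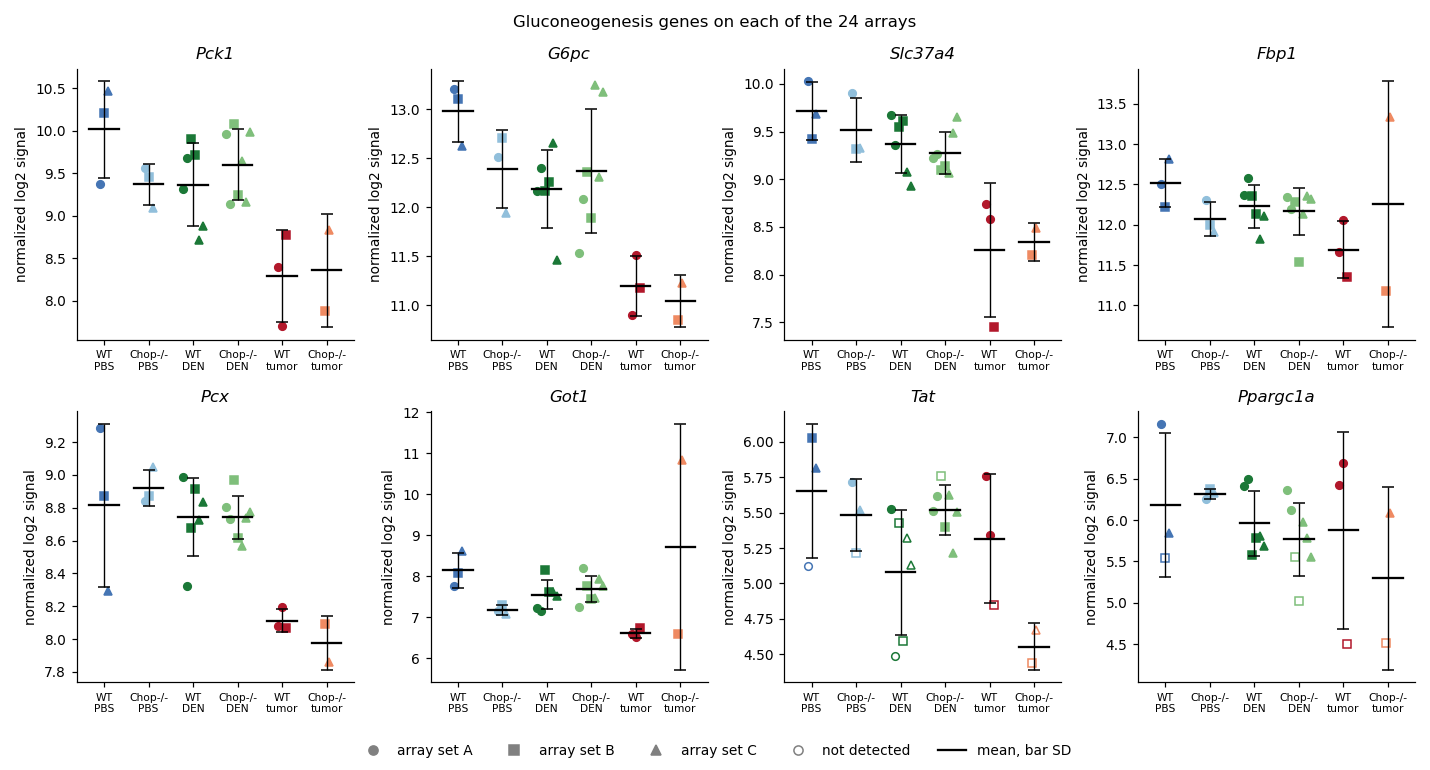
Log2 level of each gluconeogenesis gene (vertical axis, scale differs between panels) on all 24 arrays, by group. Points are samples, shaped by array set and open where the probe was not detected. Lines are group means and bars SD. The tumor points of Slc37a4 and Pcx lie below all liver points, and those of Pck1 and G6pc are low but overlap with the lowest livers. For Got1 1 Chop-/- tumor stands at 10.85.

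Pck1 encodes the cytosolic phosphoenolpyruvate carboxykinase, which turns oxaloacetate into phosphoenolpyruvate and is the classic hormone-regulated step of the pathway. G6pc encodes the catalytic subunit of glucose-6-phosphatase, which releases free glucose in the last step. Both genes are textbook targets of cAMP signaling, and the stretch before their transcription start is printed here. They had large falls in tumors, and exact matches to different searched elements were found in these stretches. Near forms of an element were not searched, so a missing match does not show that the element is absent. The sequences are the 250 bases before the start (RefSeq, build GRCm38.p6, plus strand), at chr2:173152823-173153072 for Pck1 and at chr11:101367466-101367715 for G6pc. Capitals mark a match to a CREB site in Pck1 and to a TATA box in G6pc.
Pck1: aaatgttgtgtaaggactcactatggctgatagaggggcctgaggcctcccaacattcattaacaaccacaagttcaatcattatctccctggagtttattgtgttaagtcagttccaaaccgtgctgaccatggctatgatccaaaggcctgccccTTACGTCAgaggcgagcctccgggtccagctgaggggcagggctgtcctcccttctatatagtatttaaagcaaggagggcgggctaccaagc
G6pc: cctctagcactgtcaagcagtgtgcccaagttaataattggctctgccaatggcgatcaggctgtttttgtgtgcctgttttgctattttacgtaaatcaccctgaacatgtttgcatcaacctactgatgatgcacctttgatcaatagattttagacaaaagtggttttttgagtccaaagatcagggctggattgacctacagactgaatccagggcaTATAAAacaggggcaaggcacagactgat
All 8 genes had at least 1 promoter window of 300 bases (250 before and 50 after the start) in the reference, 11 windows in total. The CREB site, searched as TGACGTCA or TTACGTCA on both strands, was found in Pck1 alone, with its first base at position -93, and in 2.28% of 32851 promoters. The shorter CREB core TGACG, which the palindromic form contains and which overlaps the match in Pck1, was found in Pck1, Slc37a4 and Ppargc1a and in 20.8% of promoters. TATAAA was found in G6pc, with its first base at position -29, in 1 window of Slc37a4, and in 13.6% of promoters. The FOXO core GTAAACA, the C/EBP consensus (TTGCGCAA or TTGCGTAA) and the element TGATGCAAT, bound by CHOP with C/EBP or ATF4 partners, were in none of the windows and in 3.65%, 0.35% and 0.192% of promoters. These are matches of letters in short windows and say nothing about binding.

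The first question was how the pathway stood in tumors. In wild-type tumors 4 of the 8 genes fell against PBS-treated wild-type liver, namely Pck1, G6pc, Slc37a4 and Pcx, and none rose. All 8 differences were below 0. Of all genes tested 19.3% differed in this comparison and 8.42% were lower in the tumors (adjusted p under 0.05). The median difference of the 8 genes was -1.14, and that of all genes tested was -0.00050.

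Pck1 stood at 9.37, 10.20 and 10.47 in PBS-treated wild-type livers and at 8.40, 7.70 and 8.77 in wild-type tumors. Every tumor was below every one of these livers. The mean fell by 1.72 on the log2 scale (standard error 0.36, adjusted p = 0.00139 from limma), to 30.3% of the liver level. G6pc stood at 13.21, 13.10 and 12.63 in the livers and at 10.90, 11.52 and 11.18 in the tumors, again without overlap. It fell by 1.78 (standard error 0.36, adjusted p = 0.000991), to 29.1% of the liver level. Slc37a4 encodes the transporter that carries glucose-6-phosphate into the endoplasmic reticulum, where G6pc acts on it. Its level was 10.03, 9.43 and 9.69 in the livers and 8.74, 8.58 and 7.45 in the tumors. The difference was -1.46 (standard error 0.27, adjusted p = 0.000540), and the lowest value was that of the tumor B_12. The partner steps of glucose release, catalysis and transport, both had less transcript in each wild-type tumor than in each PBS-treated liver. The share of all genes tested whose groups do not overlap was not counted, in this or in later comparisons of groups. Lack of overlap is therefore only a description of these genes. Pcx encodes the mitochondrial pyruvate carboxylase, which makes oxaloacetate from pyruvate at the start of the pathway. It was at 9.28, 8.87 and 8.29 in the livers and at 8.08, 8.19 and 8.07 in the tumors. The tumors were close to each other and below the livers, of which C_17 came nearest. The mean fell by 0.70 (standard error 0.19, adjusted p = 0.0126). This call was lost without the PBS-treated liver A_01 (-0.47, adjusted p = 0.0935), in a fit of the compared groups alone (adjusted p = 0.171) and with the tumors of a genotype averaged to 1 sample (adjusted p = 0.133). Within array sets A and B the differences were -1.32 and -1.43 for Pck1, -2.0 and -1.93 for G6pc, -1.37 and -1.98 for Slc37a4, and -1.15 and -0.80 for Pcx.

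Fbp1 encodes the liver fructose-1,6-bisphosphatase, the middle irreversible step. It was at 12.51, 12.22 and 12.81 in PBS-treated wild-type livers and at 11.67, 12.05 and 11.36 in wild-type tumors. The groups did not overlap, and the difference was -0.82 (adjusted p = 0.102), which did not pass. Got1 encodes the cytosolic aspartate aminotransferase, which helps to carry oxaloacetate out of mitochondria as aspartate. It was at 7.77, 8.07 and 8.61 in the livers and at 6.60, 6.52 and 6.73 in the tumors. The difference of -1.53 (adjusted p = 0.0620) did not pass although each tumor was over 1 log2 unit below the lowest liver. Got1 passed in a limma fit of the compared groups alone (adjusted p = 0.00815) and with array weights (adjusted p = 0.0115). The main model shares 1 estimate of spread over all groups. For both genes the Chop-/- tumors were far apart, with an SD of 3.00 for Got1 and 1.53 for Fbp1. Without either one of these Chop-/- tumors both genes passed in wild-type mice, Got1 with an adjusted p of 0.000116 and Fbp1 with 0.0106. Tat encodes tyrosine aminotransferase, a liver enzyme of tyrosine breakdown that glucocorticoids induce. It was dim everywhere, detected on 13 of 24 arrays, and its values were 5.12, 6.03 and 5.82 in the livers and 5.76, 5.34 and 4.85 in the tumors (difference -0.34, adjusted p = 0.433). Ppargc1a encodes PGC-1alpha, a coactivator that fasting induces and that raises transcription of gluconeogenic genes. It was detected on 19 of 24 arrays and was at 7.16, 5.54 and 5.84 in the livers and at 6.42, 6.69 and 4.51 in the tumors, with a difference of -0.31 (adjusted p = 0.720). For Tat and Ppargc1a the groups overlapped.

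**Figure D2:**
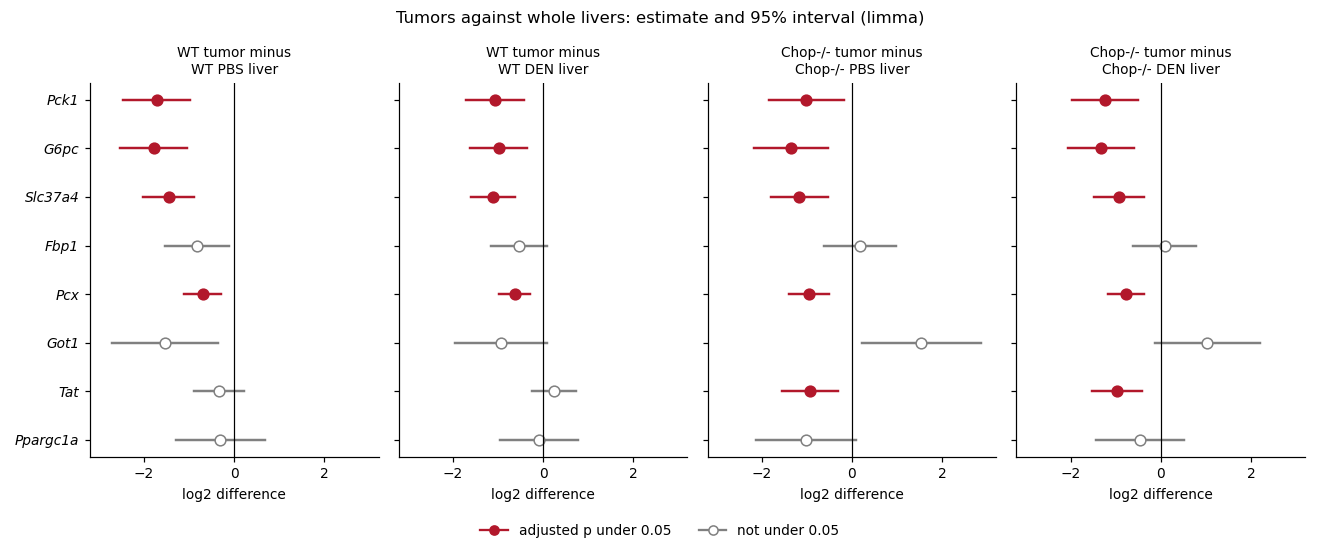
Log2 differences between tumors and whole livers of the same genotype for the 8 genes (horizontal axis), with 95% intervals from limma. Filled red points have an adjusted p under 0.05 over all 8969 genes. Pck1, G6pc, Slc37a4 and Pcx are red and below 0 in all 4 comparisons, and Tat is red in the comparisons of Chop-/- tumors.

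DEN-treated whole livers are the closer reference, since the tumor-bearing mice had the same injection. Against them Pck1, G6pc, Slc37a4 and Pcx fell in wild-type tumors as well, and no other member passed in the main model. Of all genes tested 22.3% differed here and 10.2% were lower in the tumors. The DEN-treated wild-type livers ran from 8.71 through a median of 9.50 to 9.90 for Pck1 and from 11.46 through 12.21 to 12.66 for G6pc. One of the 3 tumors overlapped with them for each gene, B_12 at 8.77 for Pck1 and A_08 at 11.52 for G6pc. The differences were -1.07 for Pck1 (standard error 0.31, adjusted p = 0.0147) and -0.99 for G6pc (standard error 0.31, adjusted p = 0.0233). Slc37a4 ran from 8.93 through 9.46 to 9.67 in these livers and differed by -1.11 (standard error 0.24, adjusted p = 0.00146). Pcx ran from 8.32 through 8.78 to 8.99 and differed by -0.63 (standard error 0.17, adjusted p = 0.00867). Neither Slc37a4 nor Pcx overlapped with the tumors. Pck1 lost its call without the tumor A_08 (-0.78, adjusted p = 0.128), and G6pc lost it without A_04 (-0.84, adjusted p = 0.106) or B_12 (-0.98, adjusted p = 0.0749). Got1 ran from 7.15 through 7.57 to 8.15 in the livers, above all wild-type tumors, with a difference of -0.93 (adjusted p = 0.191). It passed in a limma fit of the compared groups alone (adjusted p = 0.00667) and with array weights (adjusted p = 0.0106). Fbp1 ran from 11.82 through 12.24 to 12.58 and overlapped (difference -0.53, adjusted p = 0.218). Without either Chop-/- tumor Got1 passed here with an adjusted p of 0.00235 and Fbp1 with 0.0485. Within sets A and B the differences were -1.45 and -1.03 for Pck1, -1.08 and -1.04 for G6pc, -0.86 and -2.13 for Slc37a4, and -0.52 and -0.73 for Pcx.

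In Chop-/- tumors the same 4 genes and Tat fell, against PBS-treated and against DEN-treated Chop-/- livers alike, and none of the 8 passed as higher. The background was larger than in wild-type mice. Of all genes tested 43.5% differed from PBS-treated livers and 22.4% were lower in the tumors, and against DEN-treated livers these shares were 39.4% and 20.3%. The comparisons with PBS- and with DEN-treated livers share their tumors and are not independent of each other.

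Pck1 was at 9.56, 9.45 and 9.09 in PBS-treated Chop-/- livers, ran from 9.14 through 9.64 to 10.08 in DEN-treated ones, and was at 7.88 in the tumor B_16 and 8.83 in C_24. Both tumors were below all livers of their genotype. The difference was -1.01 from PBS-treated (standard error 0.40, adjusted p = 0.0447) and -1.24 from DEN-treated livers (standard error 0.35, adjusted p = 0.00701). G6pc was at 12.51, 12.71 and 11.94 in PBS-treated livers, ran from 11.53 through 12.30 to 13.25 after DEN, and was at 10.85 and 11.23 in the tumors. It fell by 1.35 from PBS-treated (standard error 0.40, adjusted p = 0.00908) and by 1.33 from DEN-treated livers (standard error 0.35, adjusted p = 0.00429). Slc37a4 was at 9.90, 9.32 and 9.32 in PBS-treated livers, ran from 9.06 through 9.22 to 9.65 after DEN, and was at 8.20 and 8.48 in the tumors. It fell by 1.17 (adjusted p = 0.00352) and by 0.93 (adjusted p = 0.00785). Pcx was at 8.84, 8.87 and 9.05, ran from 8.57 through 8.74 to 8.97 after DEN, and was at 8.09 and 7.86 in the tumors. It fell by 0.95 (adjusted p = 0.00126) and by 0.77 (adjusted p = 0.00260). For these 4 genes neither tumor overlapped with any Chop-/- liver. Of all genes tested 27.7% were below every Chop-/- liver in B_16 and 35.2% in C_24. Within sets B and C, against PBS-treated livers, the differences were -1.57 and -0.26 for Pck1, -1.86 and -0.71 for G6pc, -1.11 and -0.84 for Slc37a4, and -0.79 and -1.19 for Pcx.

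Tat was detected in neither Chop-/- tumor (4.44 and 4.67). It was at 5.72, 5.22 and 5.52 in PBS-treated Chop-/- livers and ran from 5.21 through 5.51 to 5.76 in DEN-treated ones, where 6 of 7 arrays detected it. Since the tumors only set a bound, it was at least 1.19-fold lower than in PBS-treated (adjusted p = 0.0166) and at least 1.22-fold lower than in DEN-treated livers (adjusted p = 0.00611). The bound is the liver mean over the mean of the lowest signals still detected on the tumor arrays. Ppargc1a was at 4.52, not detected, in B_16 and at 6.08 in C_24. It was at 6.26, 6.38 and 6.32 in PBS-treated Chop-/- livers and ran from 5.02 through 5.78 to 6.36 after DEN. Its differences were -1.02 (adjusted p = 0.129) and -0.47 (adjusted p = 0.454).

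With 2 tumors in this group, several of these calls depended on which samples were in. Without B_16 the call against PBS-treated livers was lost for Pck1 (-0.54, adjusted p = 0.399), G6pc (-1.16, adjusted p = 0.0712) and Tat (adjusted p = 0.0963). Against DEN-treated livers it was then lost for Pck1 (-0.77, adjusted p = 0.186), G6pc (-1.14, adjusted p = 0.0595), Slc37a4 (-0.79, adjusted p = 0.0862) and Tat (adjusted p = 0.0661). Without C_24 it was lost for Pcx against DEN-treated livers (-0.65, adjusted p = 0.0689), and Ppargc1a passed against PBS-treated ones (-1.80, adjusted p = 0.0377). The Pck1 call against PBS-treated livers was also lost without the liver A_05 (-0.91, adjusted p = 0.111) or B_13 (-0.97, adjusted p = 0.0916), as was the Tat call without A_05 (adjusted p = 0.0604). It was lost by a small margin without a DEN-treated liver, wild-type A_02 (adjusted p = 0.0513) or Chop-/- C_20 (adjusted p = 0.0509).

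Got1 and Fbp1 separated the Chop-/- tumors. Got1 was at 6.60 in B_16, a signal of 81.2, and at 10.85 in C_24, a signal of 1827. PBS-treated Chop-/- livers were at 7.16, 7.31 and 7.08, and DEN-treated ones ran from 7.26 through 7.76 to 8.20. C_24 was thus above and B_16 below every Chop-/- liver. Fbp1 was at 11.18 in B_16 and at 13.34 in C_24, against 11.91 to 12.31 in PBS-treated and 11.53 through 12.28 to 12.36 in DEN-treated livers, with the same order. The mean differences therefore describe neither tumor. For Got1 they were +1.54 from PBS-treated (adjusted p = 0.0539) and +1.03 from DEN-treated livers (adjusted p = 0.148). B_16 alone gave -0.58 from PBS-treated (adjusted p = 0.225) and -1.09 from DEN-treated livers (adjusted p = 0.0178), and C_24 alone gave +3.66 from PBS-treated (adjusted p = 3.32e-08) and +3.16 from DEN-treated ones (adjusted p = 9.00e-08). For Fbp1 the means were +0.18 (adjusted p = 0.733) and +0.09 (adjusted p = 0.857). B_16 alone gave -0.90 (adjusted p = 0.0401) and -0.99 (adjusted p = 0.0191), and C_24 alone +1.27 (adjusted p = 0.00288) and +1.17 (adjusted p = 0.00321). Each of these fits of a lone tumor assumes that it varies like the other groups. C_24 is the tumor with the high neutrophil, monocyte and erythroid markers, and its macrophage markers summed to 471 against 658 in B_16. Its 8 hepatocyte markers summed to 153614 against 160030. The part of these other cells in the Got1 and Fbp1 levels was not tested.

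**Figure D3:**
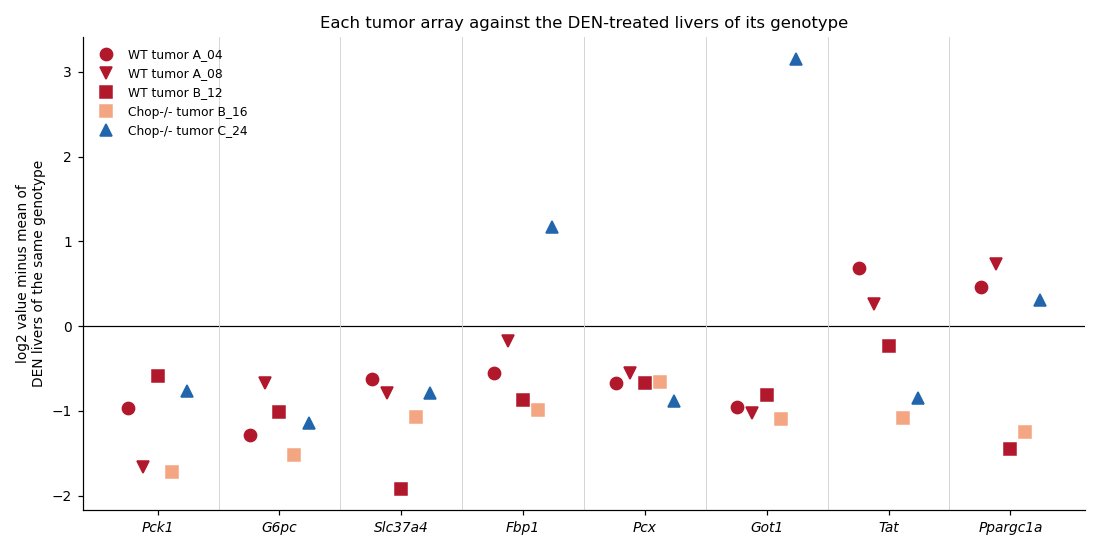
Log2 level of each gene in each of the 5 tumors minus the mean of the DEN-treated livers of its genotype (vertical axis). Each symbol is a tumor. Pck1, G6pc, Slc37a4 and Pcx are below 0 in all 5, and the tumor C_24 stands above 0 for Fbp1 and Got1.

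Tumor by tumor, all 8 genes were below every Chop-/- liver in B_16, where 27.7% of all genes tested were. In C_24 5 genes were below, 1 within and 2 above the range of Chop-/- livers, beside 35.2% of all genes below and 28.7% above. Of the wild-type tumors, A_04 and B_12 each had 6 genes below all wild-type livers and 2 within their range, and A_08 had 4 below and 4 within. Of all genes tested 16.8% were below the livers in A_04, 24.5% in B_12 and 18.7% in A_08. Pcx and Slc37a4 were below every liver of their genotype in all 5 tumors, and how many of all genes were so in all 5 was not counted. Markers of dividing cells also differed between tumors and livers. The 3 measured ones rose in tumors of both genotypes, and their summed signal was 285 to 597 in tumors against 75.0 to 194 in livers. The 6 measured macrophage markers summed to 989 to 2017 in wild-type tumors against 2252 to 2845 in PBS-treated livers, where 2 of 6 fell, and to 471 to 658 in Chop-/- tumors against 919 to 1358, where 3 fell and 1 rose. Marco and Timd4 were undetected in both Chop-/- tumors. The part of either set of markers in the falls of gluconeogenesis genes was not tested.

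The next question was whether the lack of CHOP changed the pathway. Between tumors Got1 passed, at +2.11 in Chop-/- over wild-type tumors (standard error 0.64, adjusted p = 0.0354), and no other of the 8 genes did, where 10.5% of all genes tested differed. This difference was that of C_24. Without it the value was -0.0154 (adjusted p = 0.991), and between the wild-type and Chop-/- tumors of set B it was -0.13. It also lost its call without the wild-type tumor A_04 (adjusted p = 0.0798) or A_08 (adjusted p = 0.0917) and in a fit with array set as a fixed term (+1.84, adjusted p = 0.0995). Without B_16, Fbp1 passed as well (+1.65, adjusted p = 0.000662), and without the wild-type tumor B_12 Tat did (adjusted p = 0.0376). Neither G6pc and Slc37a4 of the glucose-releasing end nor Pck1 and Pcx passed. G6pc differed by -0.16 with a 95% interval from -0.98 to 0.67, Slc37a4 by +0.09 (-0.54 to 0.72) and Pck1 by +0.06 (-0.76 to 0.89). Pcx differed by -0.14 (-0.59 to 0.31). Tat was at 5.76, 5.34 and 4.85 in wild-type tumors, 2 of 3 detected, and undetected in both Chop-/- tumors (adjusted p = 0.107).

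Whether the change from DEN-treated liver to tumor differed between the genotypes was tested as an interaction, in which 4.69% of all genes passed. None of the 8 genes did. Tat came closest (unadjusted p = 0.00266, adjusted p = 0.0528), but no size can be given, since the Chop-/- tumors hold only a bound for it. Its adjusted p crossed the threshold without the wild-type tumor B_12 (0.0159), the PBS-treated livers A_01 (0.0384) and B_09 (0.0495) or the DEN-treated livers A_02 (0.0407) and B_15 (0.0497), among others. Got1 had an interaction of +1.96 (adjusted p = 0.123), and without B_16 it was +4.09 (adjusted p = 1.24e-07), when Fbp1 had one of +1.71 (adjusted p = 0.00161). For the remaining members the interaction lay between -0.38 and 0.18, apart from Fbp1 at 0.63 (adjusted p = 0.444).

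In PBS-treated livers none of the 8 genes differed between genotypes, where 0.0223% of all genes tested passed (2 genes, Ddit3 among them, and 941 at an unadjusted p under 0.05). Of the 8 genes 6 were lower in Chop-/- livers, with a median of -0.32. Got1 was the widest apart, at 7.16, 7.31 and 7.08 in Chop-/- against 7.77, 8.07 and 8.61 in wild-type livers. These groups did not overlap, but the difference of -0.97 had a 95% interval from -2.14 to 0.21 (adjusted p = 0.546). Pck1 was at -0.65 (-1.39 to 0.09), G6pc at -0.59 (-1.33 to 0.15) and Fbp1 at -0.44 (-1.15 to 0.27). The 6 macrophage markers summed to 919 to 1358 in these Chop-/- livers against 2252 to 2845 in the wild-type ones, and their part in these differences was not tested. In DEN-treated livers none of the 8 passed either, where again 0.0223% of genes tested did (2 genes, and 151 at an unadjusted p under 0.05). All differences were between -0.19 and 0.44. Tat was highest, at +0.44 (unadjusted p = 0.0270, adjusted p = 1.00), with 6 of 7 Chop-/- and 1 of 6 wild-type arrays above detection.

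**Figure D4:**
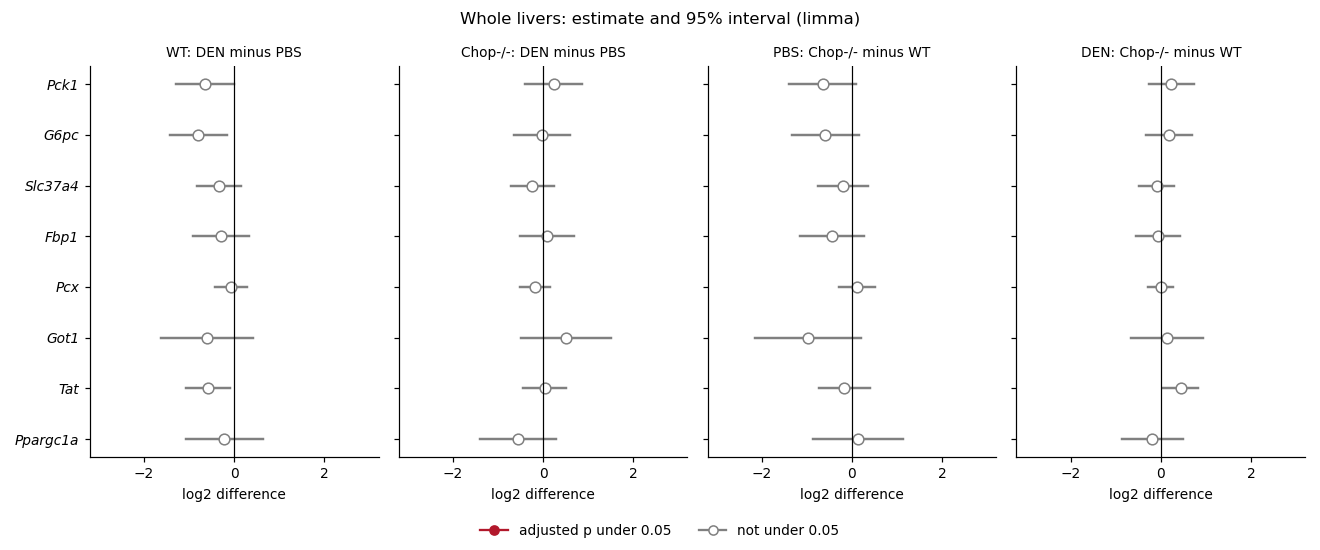
Log2 differences between whole-liver groups for the 8 genes (horizontal axis), with 95% intervals from limma. No point is filled, since no gene had an adjusted p under 0.05. In the first panel (DEN minus PBS, wild-type) all 8 points lie below 0.

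The last question was what DEN had done to whole livers by 9 months. In wild-type mice all 8 genes were lower after DEN than after PBS, with a median of -0.46 against 0.00138 for all genes tested, but none passed. Of all genes 0% passed here, and 246 had an unadjusted p under 0.05 from limma. Among these were G6pc (-0.79), Tat (-0.58) and Pck1 (-0.65), whose adjusted p was 1.00 from limma beside unadjusted values of 0.0172, 0.0227 and 0.0479. G6pc was at 12.63 to 13.21 in PBS-treated livers and 11.46 to 12.66 after DEN, so the highest DEN-treated liver just reached the lowest control. The other 5 members lay between -0.60 (Got1) and -0.07 (Pcx). In Chop-/- mice 4 of the 8 were lower and 4 higher, with a median of 0.00803, and none had an unadjusted p under 0.05. There 0.0223% of all genes passed (2 genes, and 710 at an unadjusted p under 0.05). Pck1 was +0.23 with a 95% interval from -0.39 to 0.86, and G6pc was -0.02 (-0.64 to 0.61). The difference between the genotypes in the effect of DEN, again an interaction, was +0.88 for Pck1 (95% interval -0.02 to 1.78, unadjusted p = 0.0537) and +0.78 for G6pc (-0.12 to 1.67). None passed, and 0% of all genes did (316 at an unadjusted p under 0.05). A whole liver after DEN mixes nodules with other tissue in a proportion that these data do not give.

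Exact 2-sided permutation tests of the 8 genes in the comparisons of group pairs gave 72 p-values, of which 20 were the smallest that their group sizes allow. These tests were not run over all genes tested, so the 20 cannot be set against a background share. The smallest value possible is 0.1 for 3 samples against 3 or 2, so these tests cannot pass alone in most of the tumor comparisons. After Benjamini-Hochberg adjustment over the 72 the lowest was 0.2. Where 3 tumors faced 6 DEN-treated livers the limit is 0.0119, and Pcx, Slc37a4 and Got1 reached it. Where 2 Chop-/- tumors faced 7 DEN-treated livers it is 0.0278, reached by Pck1, Pcx, Slc37a4 and Tat.

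Genes around the pathway were counted from lists of textbook members. These counts are to be read against all genes tested, of which, compared with PBS-treated livers, 19.3% differed and 8.42% were lower in wild-type tumors and 43.5% differed and 22.4% were lower in Chop-/- tumors. The Chop-/- counts rest on the mean of tumors that stood apart, so levels of named genes are given as B_16 and then C_24. Among genes that feed substrate into gluconeogenesis, 14 were tested, and 4 fell and 1 rose in wild-type tumors against PBS-treated livers, with a median of -0.49. That is 35.7% of the list. In Chop-/- tumors 7 fell and 1 rose (median -0.50), or 57.1%. Hpd, the next enzyme after Tat in tyrosine breakdown, differed by -3.29 in wild-type and by -3.38 in Chop-/- tumors, a fall in both. It stood at 12.50 to 12.70 in PBS-treated wild-type livers and at 7.99 to 10.15 in the tumors, and the Chop-/- tumors were at 7.28 and 11.36. Aqp9, the channel by which glycerol enters hepatocytes, fell as well (-0.83 and -1.97, with the Chop-/- tumors at 11.94 and 10.83). Slc25a10, the mitochondrial dicarboxylate carrier, fell too (-1.08 and -2.54, with these tumors at 8.43 and 7.50). Of 21 tested hormone receptors and transcription factors of the pathway, 2 fell and 1 rose in wild-type tumors, and 7 fell and 1 rose in Chop-/- tumors. The shares called in either direction, 14.3% and 38.1%, were below those of all genes. The shares lower, 9.52% and 33.3%, were above those of all genes, 8.42% and 22.4%. Klf15, a factor that raises amino acid breakdown and gluconeogenesis in fasting, fell by 1.52 in wild-type tumors, from 6.91 to 7.73 in livers down to 5.16 to 6.35. Esrra, a nuclear receptor that PGC-1alpha coactivates, fell by 0.62 there. Nr1h4, the bile acid receptor FXR, fell by 2.77 in Chop-/- tumors, from 11.99 to 12.25 in livers down to 10.47 and 8.23. The gene that rose in both was Trib3, an inhibitor of insulin signaling and a known CHOP target. It was detected in no PBS-treated liver and in all 5 tumors, at 5.34 to 6.01 in wild-type and at 5.65 and 5.37 in Chop-/- ones.

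Of the enzymes that gluconeogenesis shares with glycolysis 6 were tested. Mdh1, the cytosolic malate dehydrogenase, fell by 1.44 in wild-type tumors and was the only one of them called there, and the median was +0.13. In Chop-/- tumors 2 rose and none fell (median +0.25). Of 7 tested genes for glucose uptake and the opposing glycolytic steps, none passed in wild-type tumors (median -0.08), and 3 rose and 3 fell in Chop-/- tumors. The list median against PBS-treated livers was -0.38 in B_16 and +0.74 in C_24. Pkm, the pyruvate kinase of most tissues other than liver, rose by 3.35 there, and its tumors were at 8.35 and 11.93. Pklr, the liver pyruvate kinase, fell by 1.29, to 5.65 and 5.30, and Gckr, the regulator of liver glucokinase, by 0.88, to 9.72 and 9.96. Of 11 tested genes that fasting, cAMP or glucocorticoids induce, as they do Pck1 and G6pc, 5 rose and none fell in wild-type tumors, and 3 rose and 1 fell in Chop-/- tumors. The shares called were 45.5% and 36.4%, the second below that of all genes. Igfbp1, an insulin-repressed binding protein of IGF, rose by 4.02 in wild-type and by 7.07 in Chop-/- tumors, which were at 12.45 and 12.71. Fgf21, a fasting hormone, rose by 4.84 in wild-type tumors, and Sgk1, a glucocorticoid-induced kinase, by 2.01. Cyp4a14, a target of PPARalpha, fell by 5.39 in Chop-/- tumors, to 8.87 and 5.14. Several genes of this list also respond to other stimuli such as cell stress, and the list does not measure feeding state. Of 8 tested fed-state and insulin-responsive genes only Thrsp passed, a fall in tumors of both genotypes (12.5% of the list). Of 10 tested circadian clock genes none passed in wild-type tumors, and 3 fell in Chop-/- tumors (30%). Of 2 tested other isoenzymes of the pathway neither passed in wild-type tumors. In Chop-/- tumors Fbp2 rose (+2.22) and Got2 fell (-0.83).

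Gluconeogenesis is strongest around the portal tracts of the liver, so markers of that zone and of the opposite one were counted too. Of 9 tested periportal genes 6 fell and 1 rose in wild-type tumors (median -1.23). Those that fell included Cyp2f2, a cytochrome P450 (-2.04), and Ass1, an enzyme of the urea cycle (-1.23). The gene that rose in wild-type tumors was Aldh1b1 (+1.73), which had the smallest p of the list. All 10 tested perivenous genes fell there (median -1.91), with Slc1a2, a glutamate transporter, at -3.2 and Cyp2e1, a cytochrome P450 of the central zone, at -1.77. In Chop-/- tumors 3 of 9 periportal genes fell and 1 rose, again Aldh1b1 at +1.65 (median of the list -0.11). Of 10 perivenous genes 9 fell there (median -4.04). The periportal share called there, 44.4%, was close to that of all genes, and the list median was -1.12 in B_16 and -0.36 in C_24. The perivenous median was -4.96 and -3.96. The part of zonation in the falls of gluconeogenesis genes was not tested. None of the genes in the pathway and zonal lists passed in the comparisons of whole livers.

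**Figure D5:**
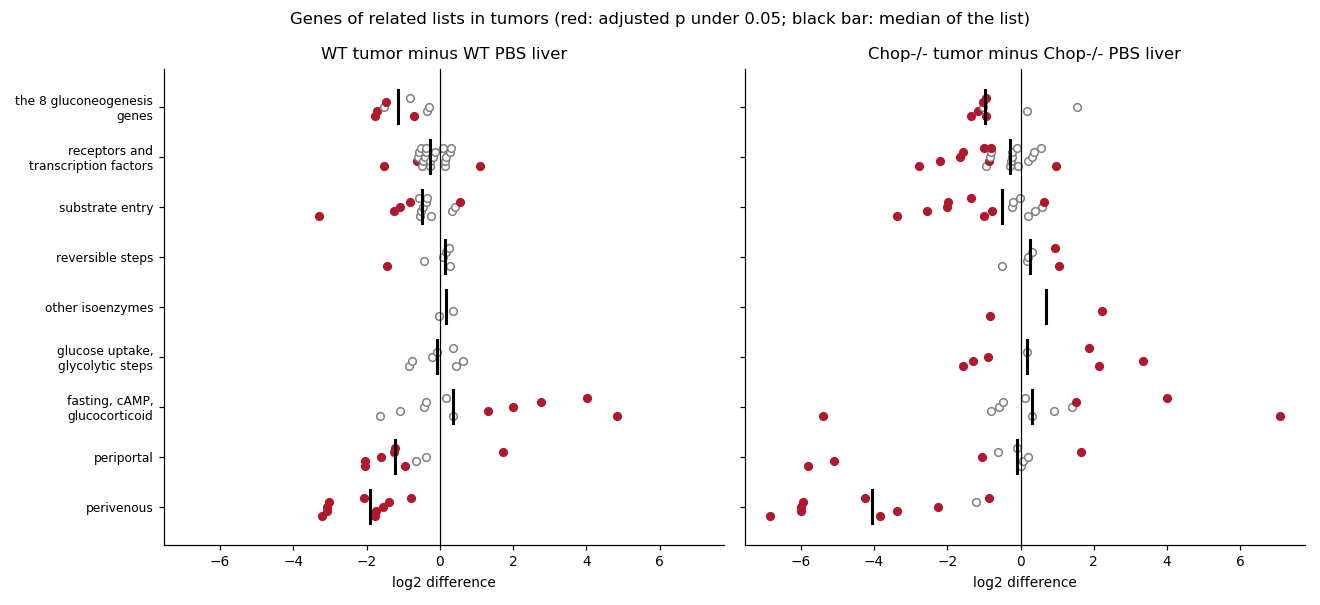
Log2 differences of tumors from PBS-treated livers of the same genotype (horizontal axis) for the 8 genes and the genes of related lists. Each point is a gene, red where its adjusted p was under 0.05, and black bars are list medians. The 8 genes have medians of -1.14 and -0.98, and the perivenous genes of -1.91 and -4.04.

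How the genes varied from sample to sample within groups is given as a description. The deviations of Pck1 and G6pc from their group means had a Pearson correlation of 0.08 over the 24 arrays, and those of Pck1 and Fbp1 one of 0.41. These values share the arrays and their normalization, and no test is attached to them. By this measure Stxbp2 was closest to Ppargc1a (0.87), followed by Esrra (0.86), the receptor that PGC-1alpha coactivates. Tspyl3 was closest to G6pc (0.67), followed by Txnip (0.64), an arrestin-like protein whose transcription follows glucose. Over the 19 whole livers alone the values of Esrra and Txnip were 0.75 and 0.77. There Txnip was closest to G6pc, but Zfyve27 was closest to Ppargc1a (0.93). Over the 24 arrays Fh1, the fumarase of the citric acid cycle, was closest to Fbp1 (0.93). Cd300ld was closest to Pck1 (0.83), Upf1 to Pcx (0.90) and Slc20a1 to Slc37a4 (0.80). Ppp1r3c, which targets a phosphatase to glycogen, was closest to Tat (0.76). Egln3, a hypoxia-induced oxygen sensor, was closest to Got1 (0.95 over 24 arrays). That value includes the tumor C_24, and over the 19 whole livers Ugt2b1 was closest to Got1 (0.86).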

How the data were processed

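RNA of 24 samples was amplified with biotin label and hybridized to Illumina MouseRef-8 v2.0 BeadChips. The authors exported probe intensities with GenomeStudio 2011.1. The deposited intensity values, though named non-normalized, are already background subtracted (26.9% are below 0, from -23.07 to 37048.3) and share 1 distribution across arrays. Deposited beside them is a detection p-value per probe and array, which compares a probe with negative control beads, read from the column of the same array name. A second deposited table holds log2 values, found to equal log2 of the signal after adding a constant (median 104 over probes), and served as an alternative. A further 48 columns, bead numbers and bead standard errors, were not used, so the check of replicates planned with the latter was made without them. Columns were assigned to groups through the array names in the header of the study's table of normalized values, and no value of that table was used.

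Signals went through limma's neqc (limma 3.58.1, statmod 1.5.0, R 4.3.3), which corrects background by way of the detection p-values, quantile normalizes, adds 16 and takes log2. Of 25697 probes 23978 carry 1 gene symbol in the platform annotation and 1719 none. A probe was kept when its detection p was under 0.01 on 2 arrays or more (12707 probes). Each of the 8969 genes is represented by its brightest probe. A gene undetected in a whole group has only a bound there, computed against the lowest detected signal of each array. All arrays entered a single limma model with 6 group means, with Benjamini-Hochberg adjustment over the 8969 genes and calls at an adjusted p under 0.05. The model was tried on simulated data for wild-type tumors against PBS-treated livers. Each simulated gene had equal spread in all groups, so the trial does not cover the unequal spread of Got1 and Fbp1. Exact permutation tests were added for the members.

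The members and the lists were chosen with earlier results of these data known, so list counts are descriptions without a test. The genes named from lists were up to 3 with the smallest p per list and comparison among those called, and those named for likeness were the 3 with the highest correlation to a member. Not all of these are described. Samples of a group are separate samples per the labels, and replicates were counted as labelled, since even the closest pair of 1 group differed by a median of 0.159 on the log2 scale over probes detected on all arrays. Precision is limited by how few arrays a group has. The replicate numbers in the labels were checked for pairing and did not pair the samples. Alternatives were other background, scaling, filter and probe choices, the study's threshold (above 1.5-fold at an unadjusted p under 0.05), array weights, array set or replicate number as a block, the 2 groups alone, tumors averaged, and leaving out each array.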

Additional observations from a re-analysis of the deposited data

Results flagged for a closer look

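Fbp1 in the DEN-treated Chop-/- liver B_15 was flagged as a sample far from its group. Its log2 level was 11.53 and the nearest of the other 6 livers was at 12.13, a gap of 0.722 of the group's range where 0.568 is the critical value. Of 16 groups of 4 to 10 samples that were examined, 1 was flagged, and chance flags about 1 in 20.

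Got1 was flagged because DEN and PBS livers moved apart in opposite directions in the genotypes. The difference was -0.60 in wild-type and +0.51 in Chop-/- mice, which leaves 1.11 between them. Each of the 6 DEN-treated wild-type livers was below the mean of the wild-type controls, and each of the 7 DEN-treated Chop-/- livers was above the mean of the Chop-/- controls. The test of this difference itself, the interaction, gave an unadjusted p of 0.121 and an adjusted p of 0.994 from limma.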

How the results depend on the processing

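Over 15 other settings and 24 left-out arrays, 3304 values of the members were recomputed. Many of these could not move a difference. Each member has 1 probe, so other choices of probe or detection filter return the same difference, as does leaving out an array outside the groups compared. Of the 3304 values 3221 stayed on their side of the threshold, 45 lost a call, 34 gained one and 4 turned direction. Among the 3221 were 60 values that were not called and changed sign. The count of 3221 is therefore not a measure of stability. All 4 that turned did so without the Chop-/- tumor C_24. When 1 array was left out, Got1 ran from -0.0154 without C_24 to 4.23 without B_16 between tumors, and from -1.09 to 3.16 in Chop-/- tumors against DEN-treated livers. Likewise Fbp1 in Chop-/- tumors ran from -0.897 to 1.27 against PBS-treated and from -0.990 to 1.17 against DEN-treated livers. The cause was not tested. Of the 8 genes, the number called between tumors (1) was 2 at the study's threshold and 0 with no filter on dim probes, with only the groups compared, with array weights or with the array set as a fixed block. For wild-type tumors against DEN-treated livers (4) it was 1 with the tumors of a genotype averaged. For Chop-/- tumors it was 2 with array weights and 3 with tumors averaged against PBS-treated livers (5), and 0 with array weights against DEN-treated ones (5). For DEN against PBS in wild-type mice (0) it was 2 at the study's threshold. For the tumor interaction (0) it was 2 at the study's threshold and 1 each with median scaling, with detection on at least 12 arrays and with tumors averaged. Leaving out 1 array moved these numbers from 0 to 2 between tumors, from 3 to 6 for wild-type tumors against PBS-treated and from 3 to 6 against DEN-treated livers, from 3 to 7 for Chop-/- tumors against PBS-treated and from 3 to 6 against DEN-treated livers, and from 0 to 2 for the tumor interaction. In the other comparisons it stayed at 0.

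The replicate numbers of the labels were fitted as a block on the authors' log2 values. Deviations of samples with the same number correlated between -0.186 and 0.321, with 5 of 27 pairs over 0.1, so the numbers do not pair the samples. The replicate block moved the number called in Chop-/- tumors against PBS-treated livers from 5 to 4 and changed no other count of members. The call lost was Tat (adjusted p = 0.0297 without the block and 0.0695 with it). Pck1 in that comparison had 0.0554 and 0.0730 on those values, and Got1 had 0.0354 and 0.0399. The 250 bases before the start in place of the whole promoter window gave the same members for each motif. With 2 or 3 tumors in a group, small differences between tumors were not detectable, and Tat and Ppargc1a were near background on many arrays.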
